A study of Mesocricetus auratus with 14 samples.

Results

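The SLC25 family, the carriers of the inner mitochondrial membrane, was examined in the liver of golden hamsters (Mesocricetus auratus) given DC371739, a compound the labels name by code only. Members were the genes of the authors' table whose symbol starts with Slc25a: 32 of 10023 genes with a symbol, in a count table of 22283 genes. Whole liver RNA was sequenced from 7 control samples and from 7 whose labels give DC371739 as the treatment. All 14 are labelled with a high-fat diet, so the controls were on that diet too. The labels used here name no strain, sex, age, dose or duration. They do not say that each sample came from its own animal, so p-values rest on the spread among samples, which may be technical. The question was which carriers differed in transcript level between the treated and control livers.

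SLC25 proteins share a fold of repeated pairs of membrane-spanning helices and move metabolites, nucleotides, cofactors and ions between the cytosol and the mitochondrial matrix, in most cases by exchange. In hepatocytes they link the compartments for pathways that run partly inside and partly outside mitochondria, among them the urea cycle, gluconeogenesis, export of citrate for lipid synthesis, carnitine-dependent import of fatty acids and haem synthesis. A few members sit in other membranes, such as Slc25a17 in peroxisomes and Slc25a46 in the outer mitochondrial membrane. The RefSeq gene table of the hamster assembly BCM_Maur_2.0 names 45 Slc25a genes. The 32 members are among them, and the other 13, which include the phosphate carrier Slc25a3 and the adenine nucleotide carrier Slc25a5, were not analysed here.

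Libraries held 13672589 to 23948628 counts, of which the 32 members took 0.224% to 0.372%. 3 libraries stood apart, those of controls 6 and 7 and of treated sample 7. Their totals were 22152239 to 23948628 counts, and the other 11 had 13672589 to 16710097. On the first principal component of all tested genes (33.3% of the variance) these 3 lay at 41.6 to 46.8 and the others at -30.6 to -0.97. The 3 are called the deeper libraries and the 11 (5 control, 6 DC371739) the shallower ones. Results are given over all 14, and again with a term for this class and over the 11. With 1 treated library, the deeper class could not be compared within itself. The tissue label was checked against 9 hepatocyte markers found in the table, whose summed level was 85300 to 114000 FPKM. 6 markers of muscle and brown fat were listed and not analysed here.

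Levels are FPKM, fragments per kilobase of exon scaled to the library total, here with totals adjusted by TMM, a method that sets libraries to a common scale. They may be compared between genes, within the limits of the gene models: the summed exon length of members ran from 672 to 5124 bases, and 7 members had models of under 1000 bases. In these livers the carriers spanned from under 1 to 912 FPKM in single libraries. 4 had a mean of at least 100 FPKM over the 14 libraries, 17 lay between 10 and 100, and 11 below 10, 3 of these below 1. Slc25a47, a carrier found mainly in liver whose substrate is debated, had the highest mean over the 14 libraries, at 303 ± 182 FPKM in control and 695 ± 137 FPKM in DC371739 samples (mean ± SD, n = 7 each). Next came Slc25a1, which exports citrate, at 270 ± 81.6 and 272 ± 51.6 FPKM. The order of these leading members was not the same in every group: Slc25a1 was above Slc25a47 in each of the 5 shallower controls (305 ± 67.5 against 207 ± 97.7 FPKM), and Slc25a47 was above Slc25a1 in both deeper controls and all 7 treated libraries. They were followed by Slc25a13 (109 ± 11.7 FPKM in control), the aspartate-glutamate carrier called citrin, and Slc25a11 (112 ± 5.58 FPKM in control), the oxoglutarate carrier. Both serve the malate-aspartate shuttle, and within the control samples their levels did not differ from each other beyond their spread. Slc25a4, the adenine nucleotide carrier of heart and muscle, was low, at 3.0 ± 0.31 FPKM in control. At the bottom were Slc25a24, Slc25a27 and Slc25a45, with means under 1 FPKM. Slc25a27 had 2 to 32 counts per library, Slc25a24 12 to 68, Slc25a45 18 to 51 and Slc25a35, just above 1 FPKM, 22 to 58, so that counting error is large for these 4. Reads shared between near-identical genes, such as Slc25a4 and relatives not analysed here, cannot be told apart from these counts.

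**Figure D1:**
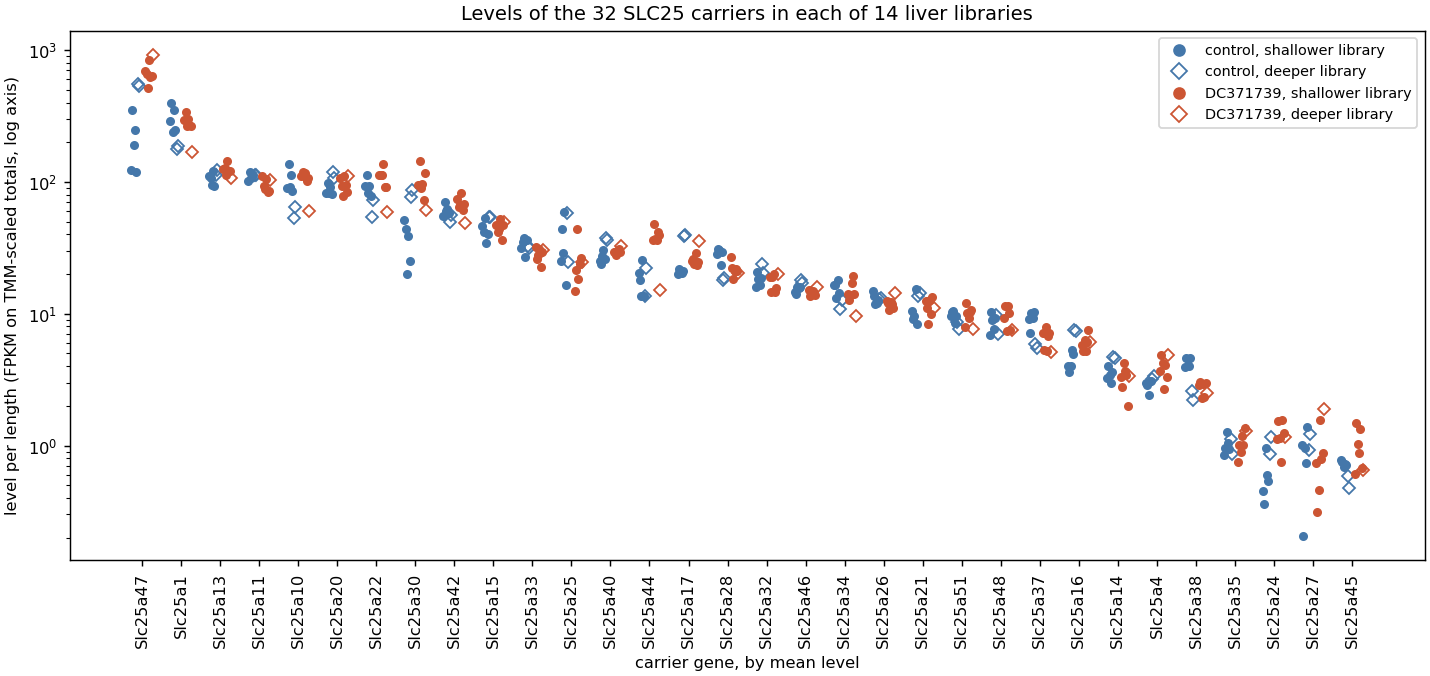
Level of each of the 32 SLC25 carriers (FPKM on TMM-scaled totals, log axis) in the 14 libraries, ordered by mean level; circles are shallower and open diamonds deeper libraries, blue control and red DC371739. Slc25a47 and Slc25a1 have the highest means, and the deeper libraries sit apart for members such as Slc25a10 and Slc25a17.

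Summed over the 32 members, the level was 1200 to 1770 FPKM in control and 1770 to 2270 FPKM in DC371739 libraries, with medians of 1570 and 1950 FPKM. Slc25a47 alone made up 9.44% to 32.7% of the sum in control and 28.9% to 46.7% in DC371739 libraries. Without it, the sums were 1080 to 1420 and 1040 to 1430 FPKM, and the groups overlapped over nearly their whole range. The higher sum of the treated samples was thus largely the level of Slc25a47.

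1 member passed the test over all 14 libraries: Slc25a44, which carries branched-chain amino acids into mitochondria, rose. By edgeR's quasi-likelihood test on 12166 genes, 1.24% passed as higher and 0.608% as lower at a Benjamini-Hochberg adjusted p under 0.05. Against this, 1 of the 32 members was higher and 0 were lower. At an unadjusted p under 0.05, 6 members were higher and 4 lower, where 10.8% of all genes were higher and 9.60% lower. DESeq2 called 4 members higher and 0 lower, where 3.83% of the 13489 genes to which it gave an adjusted p were higher and 2.45% lower. With limma-voom, which weighted samples by quality, 7 were higher and 5 lower, where 11.6% and 10.9% of all genes were. These same shares stand behind the counts given below for other lists. The median log2 fold change of the 32 was 0.04, against -0.02 over all genes tested, and 19 were positive and 13 negative. Of all 12166 genes, 5675 were positive and 6491 negative, which also stands behind the counts by sign below. The family as a group was therefore centred near 0 with a few members far from it. In the authors' deposited table, 1 member, Slc25a44, had an FDR under 0.05 (log2 fold change 0.98, FDR 0.0310), and 0 members were lower, where 1.40% of its genes were higher and 0.698% lower by that rule.

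Slc25a44 (ENSMAUG00000021047) lies on scaffold KB708224.1, 4950242 to 4963414 on the minus strand, as the count table gives it; no source used here names the build. Its control libraries ran from 13.7 to 25.8 FPKM with a median of 18.2, and its DC371739 libraries from 15.1 to 47.5 with a median of 36.9. 6 of 7 treated libraries lay above the whole control range, and the deeper DC371739 replicate 7 lay inside it. The log2 fold change was 0.99 (SE 0.21, adjusted p = 0.0313 by edgeR's quasi-likelihood test), and without replicate 7 of the treated group it was 1.12 (adjusted p = 0.00188). Leaving out any 1 of control replicates 2, 3 and 5, or of DC371739 replicates 2, 3, 5 and 6, ended the call over 14 libraries, with an adjusted p of up to 0.0778. Over the 11 shallower libraries the groups did not overlap (13.7 to 25.8 against 36.1 to 47.5 FPKM), the log2 fold change was 1.12 (adjusted p = 0.000850), and the gene passed whichever of the 11 was left out.

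With the term for library class, 5 members passed as higher and 2 as lower, where 5.62% of all genes were higher and 6.70% lower. Over the 11 shallower libraries 7 were higher and 3 lower, 10 of 32, where 21.5% of 12249 genes passed in either direction and 10.5% as lower. As higher passed 1353 of the 12249 genes. Counts from both fits given below for other lists stand against these shares too. 6 members passed in both fits: Slc25a24, Slc25a30, Slc25a44 and Slc25a47 as higher, and Slc25a37 and Slc25a38 as lower. Both fits reuse the same libraries and are not independent of each other or of the fit over 14. Of the 32 members, 0 had groups that did not overlap over the 14 libraries, where 0.296% of all genes were higher and 0.403% lower in that way. Over the 11, Slc25a17, Slc25a30, Slc25a44 and Slc25a47 were higher and Slc25a38 lower without overlap, that is 4 and 1 of 32, where 4.09% and 5.29% of all genes were.

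**Figure D2:**
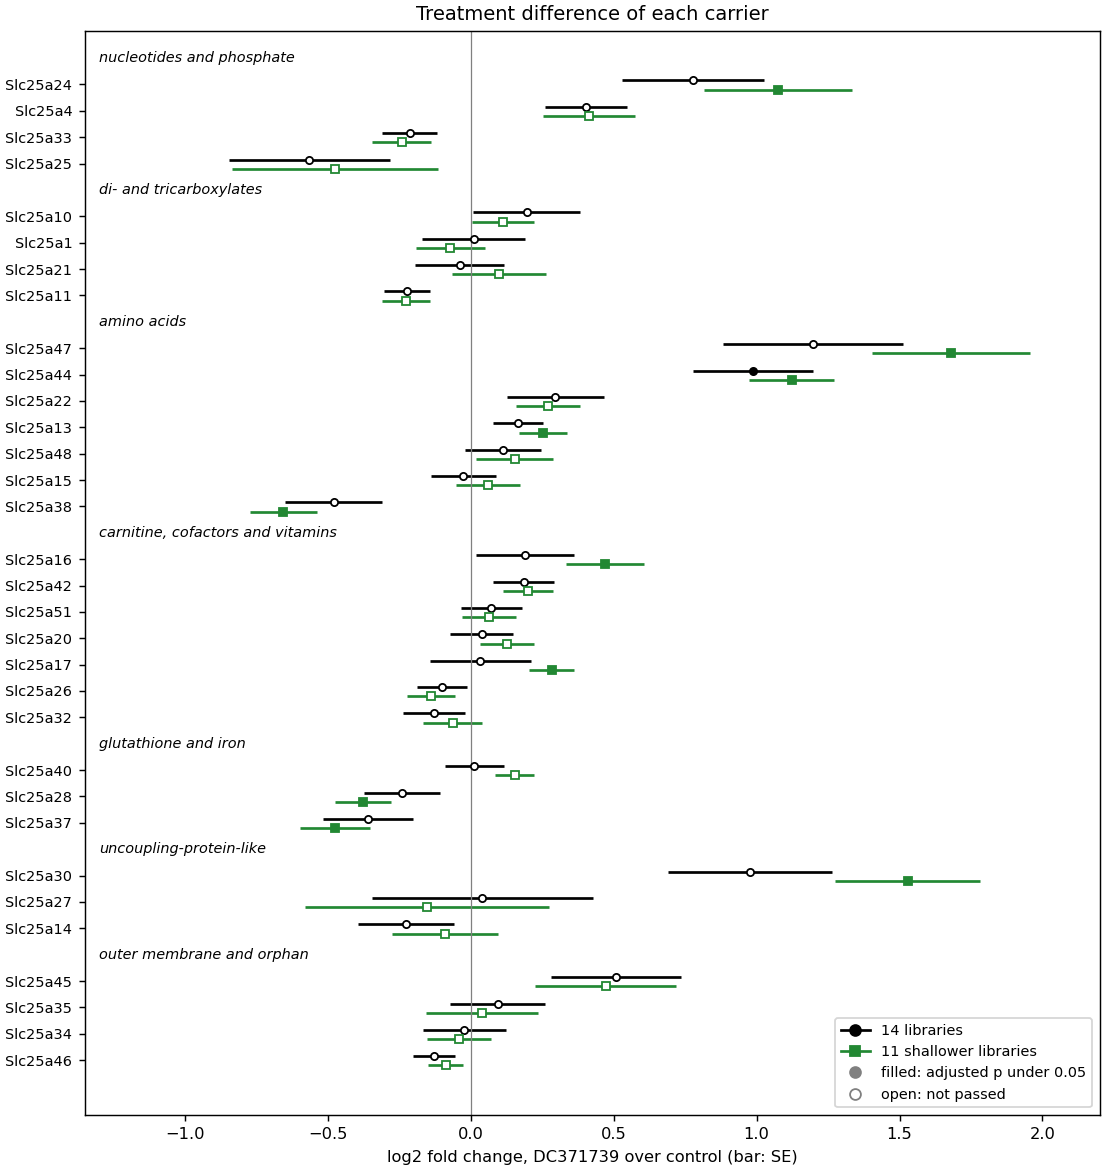
Log2 fold change of DC371739 over control (x axis, bars are SE) for each carrier, grouped by role; black circles are the fit over 14 libraries and green squares that over the 11 shallower ones, filled where the adjusted p is under 0.05. Only Slc25a44 is filled in both.

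Amino acid carriers, the group that holds Slc25a44, had 7 members and a median log2 fold change of 0.16. Slc25a47, placed here by a list although its substrate is not settled, lies on scaffold KB708140.1, 7131374 to 7136835 on the minus strand. Its level ran from 118 to 552 FPKM in control, with a median of 248, and from 512 to 912 in DC371739 samples, with a median of 654. The 5 shallower controls stood at 118 to 354 FPKM, the deeper control replicates 6 and 7 at 552 and 534, and DC371739 replicate 7 was the highest of all at 912. The groups thus overlapped only through the deeper controls and DC371739 replicate 3, at 512 FPKM. Its log2 fold change was 1.20 (SE 0.32, adjusted p = 0.0565), and it was 1.68 (0.00343) among the shallower libraries and 1.5 (0.00582) in the fit with the class term. It passed as higher without control replicate 6 (adjusted p = 0.0365) or 7 (0.0238) or DC371739 replicate 7 (0.0452).

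Slc25a38, which brings glycine into mitochondria for haem synthesis, ran from 2.2 to 4.62 FPKM in control (median 4.0) and from 2.30 to 3.01 in DC371739 samples (median 2.89). Of the deeper controls, replicate 6, at 2.58 FPKM, lay in the treated range, and replicate 7, at 2.2, lay below every treated library. The 5 shallower controls, at 3.93 to 4.62, lay above every treated library. Its log2 fold change was -0.48 (SE 0.17, adjusted p = 0.126), and -0.66 (0.00285) over the 11 shallower libraries. Slc25a13 ran from 93.1 to 122 FPKM in control (median 110) and from 106 to 144 in DC371739 samples (median 122), a log2 fold change of 0.17 (SE 0.09, adjusted p = 0.302). It passed as higher over the 11 libraries (0.25, adjusted p = 0.0457), where the groups overlapped, but in only 2 of 11 fits that left out 1 of these libraries (adjusted p up to 0.145). Slc25a22, a glutamate carrier (log2 fold change 0.30), Slc25a48, a carrier tied to choline (0.11), and Slc25a15, the ornithine carrier of the urea cycle (-0.03), did not pass in any of the 3 fits.

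The uncoupling-protein-like group had 3 members, with a median log2 fold change of 0.04. Slc25a30, a relative of the uncoupling proteins first described in kidney, lies on scaffold KB708152.1, 13454115 to 13464766 on the plus strand. It ran from 19.9 to 86.4 FPKM in control (median 43.6) and from 60.9 to 143 in DC371739 samples (median 95.4). The pattern by library resembled that of Slc25a47 in the controls, with the deeper control replicates 6 and 7 highest at 77.4 and 86.4 FPKM and the other 5 at 19.9 to 51.5. In the treated group the deeper replicate 7 was instead the lowest, at 60.9 FPKM. The log2 fold change was 0.98 (SE 0.29, adjusted p = 0.0760), then 1.19 (0.0341) with the class term and 1.53 (0.00381) over the 11. It passed over 14 libraries without control replicate 7 (adjusted p = 0.0273) or DC371739 replicate 7 (0.0340). Slc25a14 (-0.23) and Slc25a27 (0.04) are carriers best known from brain, and did not pass in any of the 3 fits.

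**Figure D3:**
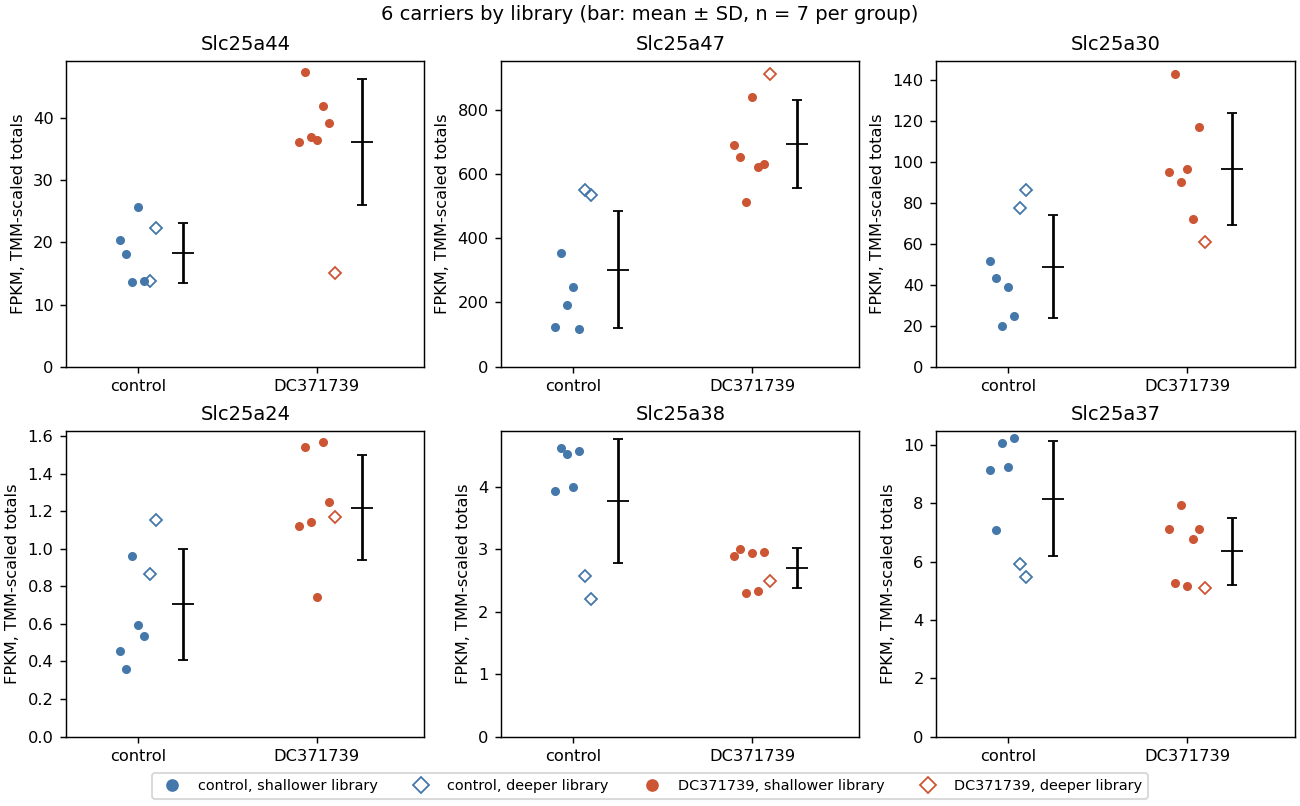
FPKM on TMM-scaled totals for 6 carriers in each library (circles shallower, open diamonds deeper), with mean and SD of 7 libraries per group beside the points; each axis starts at 0. The deeper control libraries of Slc25a47, Slc25a30, Slc25a38 and Slc25a37 lie toward, inside or (control replicate 7 of Slc25a38) just below the treated values. For Slc25a44 the deeper DC371739 library lies among the controls.

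Of the 4 nucleotide carriers, 2 had positive and 2 negative log2 fold changes, with a median of 0.09. Slc25a24 and Slc25a25 both exchange ATP-Mg for phosphate and set the size of the matrix adenine nucleotide pool. Slc25a24 ran from 0.36 to 1.15 FPKM in control (median 0.60) and from 0.74 to 1.57 in DC371739 samples (median 1.17). All 7 treated libraries lay above the control median and 3 of them within the control range. Its log2 fold change was 0.78 (SE 0.25, adjusted p = 0.0999), and 1.08 (0.0112) over the 11. Slc25a25 ran from 16.6 to 59.1 FPKM in control (median 28.8) and from 14.8 to 43.6 in DC371739 samples (median 23.8), a log2 fold change of -0.56 (SE 0.28, adjusted p = 0.272). Its controls spread widely, with replicates 4 and 6 at 59.1 and 58.1 FPKM, and the groups overlapped. The 2 paralogs thus had log2 fold changes of opposite sign; the difference between them was not tested.

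Slc25a4 ran from 2.40 to 3.36 FPKM in control (median 3.08) and from 2.69 to 4.89 in DC371739 samples (median 4.11). 5 of 7 treated libraries lay above the control range. The log2 fold change was 0.40 (SE 0.14, adjusted p = 0.127), and the gene passed as higher with the class term (0.44, 0.0425) and not over the 11 (0.41, 0.0749). Slc25a33, a pyrimidine nucleotide carrier, ran from 27.1 to 37.5 FPKM in control (median 32.5) and from 22.4 to 32.2 in DC371739 samples (median 29.6). 0 of 7 treated libraries lay above the control median, and the log2 fold change was -0.21 (SE 0.10, adjusted p = 0.217). Slc25a33 passed neither with the class term (adjusted p = 0.112) nor over the 11 (0.102), both by edgeR, while limma-voom called it as lower.

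Iron and glutathione carriers numbered 3. The mitoferrins Slc25a37 and Slc25a28 bring iron into the matrix. Slc25a37 ran from 5.46 to 10.2 FPKM in control (median 9.15) and from 5.10 to 7.92 in DC371739 samples (median 6.77), and Slc25a28 from 18.2 to 31.2 (median 28.5) and from 18.3 to 27.1 (median 21.2). For both, every treated library lay below the control median and both deeper controls lay below every other control. The log2 fold change of Slc25a37 was -0.36 (SE 0.16, adjusted p = 0.208), and it passed as lower with the class term (-0.42, 0.0230) and over the 11 (-0.47, 0.0148). That of Slc25a28 was -0.24 (SE 0.13, adjusted p = 0.319), and it passed as lower over the 11 alone of these fits (-0.38, 0.0153). Slc25a40, a glutathione carrier, ran from 23.8 to 37.6 FPKM in control (median 27.3) and from 27.8 to 32.4 in DC371739 samples (median 29.4), with a log2 fold change of 0.01 (SE 0.10, adjusted p = 0.961).

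Di- and tricarboxylate carriers, 4 members, had a median of -0.01 on the log2 scale, and none passed in any of the 3 fits. 1 had an unadjusted p under 0.05 over the 14 libraries with edgeR, DESeq2 called 0 of them, and limma-voom called Slc25a11 as lower. Slc25a1 ran from 176 to 398 FPKM in control (median 247) and from 170 to 337 in DC371739 samples (median 271). The lowest 3 values were those of the deeper libraries, and the log2 fold change was 0.01 (SE 0.18, adjusted p = 0.985). Slc25a11 ran from 101 to 118 FPKM in control (median 113) and from 83.3 to 112 in DC371739 samples (median 93.4). Its controls were among the tightest of any member, every treated library lay below the control median, and the log2 fold change was -0.22 (SE 0.08, adjusted p = 0.135). Slc25a10, which exchanges malate and succinate for phosphate, was at 0.19 and Slc25a21, an oxoadipate carrier, at -0.04 on the log2 scale.

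Carriers of carnitine, cofactors and vitamins, 7 members, had log2 fold changes from -0.13 to 0.19, with a median of 0.04, and 0 had an unadjusted p under 0.05 over the 14 libraries with edgeR. DESeq2 called none of them and limma-voom called Slc25a16 as higher. Slc25a20, the carnitine-acylcarnitine carrier of fatty acid oxidation, ran from 80.6 to 119 FPKM in control (median 91.6) and from 78.4 to 111 in DC371739 samples (median 94.5). Its log2 fold change was 0.04 (SE 0.11, adjusted p = 0.882). Slc25a17, the peroxisomal cofactor carrier, was higher in the deeper libraries by a log2 value of 0.76 (SE 0.09, adjusted p = 5.5e-06). Over 14 libraries its log2 fold change was 0.03 (SE 0.18, adjusted p = 0.940), with the 3 deeper libraries at 35.5 to 39.5 FPKM. The shallower controls stood at 20.1 to 21.9 and the shallower treated libraries at 23.4 to 28.6, without overlap, a log2 fold change of 0.28 (SE 0.08, adjusted p = 0.0191). Slc25a16, a carrier linked to coenzyme A, was at 0.19 over 14 libraries and passed as higher over the 11 (0.47, adjusted p = 0.0252), and in 8 of 11 fits that left out 1 of them (adjusted p up to 0.0656). The coenzyme A carrier Slc25a42 (0.19), the NAD carrier Slc25a51 (0.07), the S-adenosylmethionine carrier Slc25a26 (-0.10) and the folate carrier Slc25a32 (-0.13) did not pass in any of the 3 fits.

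The outer membrane and orphan group had 4 members. Slc25a46, a protein of the outer membrane with a part in mitochondrial shape, ran from 14.2 to 18.1 FPKM in control (median 16) and from 13.6 to 16 in DC371739 samples (median 14.2), a log2 fold change of -0.13 (SE 0.07, adjusted p = 0.336). Slc25a45 ran from 0.47 to 0.78 FPKM in control (median 0.71) and from 0.61 to 1.49 in DC371739 samples (median 0.88), a log2 fold change of 0.51 (SE 0.23, adjusted p = 0.221). Only 4 of its 7 treated libraries lay above the control median. Slc25a34 (-0.02) and Slc25a35 (0.09), both without a settled substrate, did not pass in any of the 3 fits.

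The carriers also varied with library class. In the fit that held both terms, 7 members were higher and 9 lower in the 3 deeper libraries, where 22.6% of all genes were higher and 23.8% lower; the members' share was thus close to that of all genes. Slc25a10 (53.2 to 64.7 against 85.6 to 137 FPKM), Slc25a1 (170 to 188 against 241 to 398) and Slc25a22 (54.0 to 73.3 against 78.1 to 137) were lower in each deeper library than in any shallower one. Slc25a17 and Slc25a40 (32.4 to 37.6 against 23.8 to 30.8 FPKM) were higher in each. Slc25a46 was too, by a margin below the printed digits (16.02 to 18.1 against 13.6 to 16.02 FPKM). The share of all genes that separated by class in this way was not computed, so these separations are not read as particular to the carriers. The largest positive class difference was that of Slc25a47, at a log2 value of 1.09 (SE 0.28, adjusted p = 0.00639), and the largest negative that of Slc25a10, at -0.84 (SE 0.12, adjusted p = 5.02e-05). Slc25a44 had a class difference of -0.46 (adjusted p = 0.175). The number of members that differed by class was 16 and fell to 10 without control replicate 6. No test was made of an interaction of treatment with class.

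**Figure D4:**
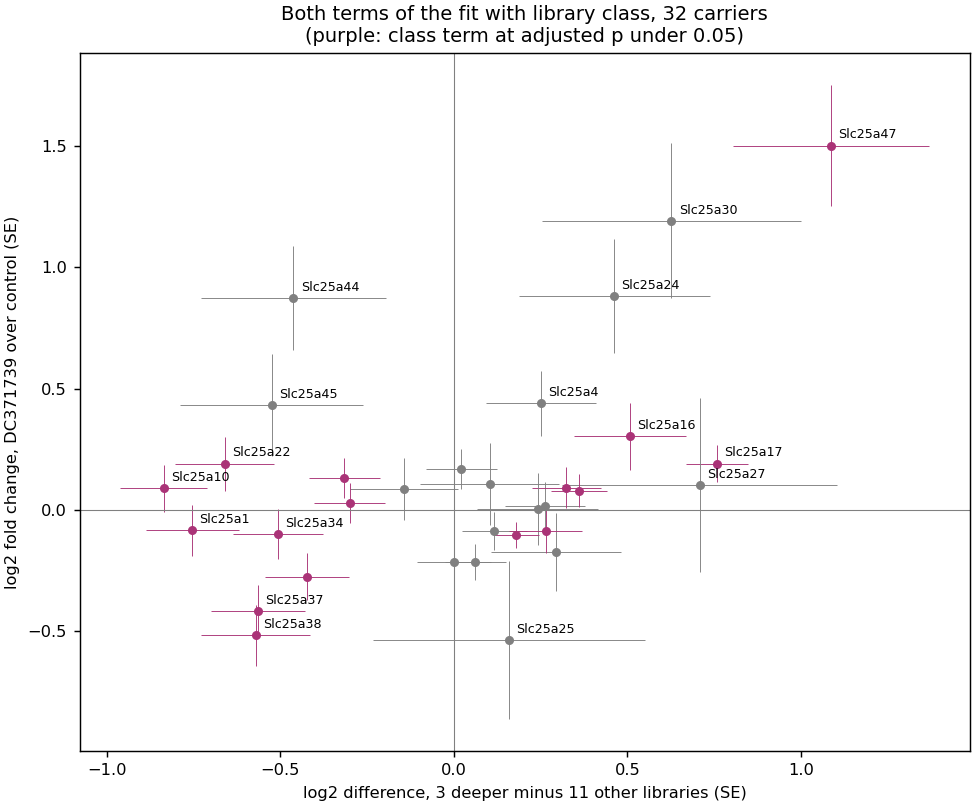
For each of the 32 carriers, the log2 difference between the 3 deeper and the 11 shallower libraries (x axis) against the log2 fold change of DC371739 over control (y axis), both from 1 fit, with SE bars; purple marks a class term at an adjusted p under 0.05. Slc25a47 is highest on both axes, and Slc25a10, Slc25a1 and Slc25a22 are low on the class axis and near 0 on the treatment axis.

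Other genes of mitochondrial transport were read from lists. Of 5 family genes that carry other symbols 2 were in the table, Ucp2 (log2 fold change 0.30, adjusted p = 0.345) and Mtch2 (-0.09, 0.681), and neither passed in any fit. Of the import machinery that inserts carriers into the inner membrane, 8 of 18 symbols were tested. Over the 14 libraries all 8 log2 fold changes were negative (median -0.21), where 6491 of all 12166 genes were. 0 of the 8 passed with edgeR, 1 had an unadjusted p under 0.05, DESeq2 called 1 and limma-voom 4, all as lower. Of all genes, 9.60% were lower at an unadjusted p under 0.05, and DESeq2 called 2.45% and limma-voom 10.9% as lower. Timm8b, a small chaperone of the space between the membranes, was at 40.4 ± 4.49 FPKM in control and 31.1 ± 4.96 in DC371739 samples (-0.37, SE 0.11, adjusted p = 0.0756). Timm13, its relative, was at -0.32 (0.275). With the class term Timm8b and Tomm40, the import pore, passed as lower, and over the 11 libraries Timm13 did too. 2 members of the list had positive values in that last fit.

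Among 18 tested genes of other mitochondrial transport, 12 were positive over the 14 libraries (median 0.11) and 0 passed with edgeR. Of the 18, 6 had an unadjusted p under 0.05, all higher, and DESeq2 called 1 and limma-voom 6 as higher. By comparison, 5675 of all 12166 genes were positive and 10.8% were higher at an unadjusted p under 0.05. DESeq2 called 3.83% of 13489 genes as higher, and limma-voom 11.6% of 12166. Cpt1a, the gate of fatty acid import that acts upstream of Slc25a20, was at 52.5 ± 23.8 FPKM in control and 92.5 ± 22.3 in DC371739 samples (0.81, SE 0.23, adjusted p = 0.0708). The sideroflexin Sfxn2 was at 0.50 (0.115). Cpt1a and the sideroflexin Sfxn5 passed as higher with the class term, and over the 11 libraries Sfxn2 and Micu2, a regulator of the calcium uniporter, did too. Slc25a20, by contrast, passed in neither fit.

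Of 16 tested enzymes that use the carried metabolites, 8 were positive and 8 negative over the 14 libraries. 0 passed with edgeR, 2 had an unadjusted p under 0.05, and DESeq2 called 0 and limma-voom 3, as higher. The glycerol phosphate dehydrogenases Gpd1 (0.37, adjusted p = 0.133) and Gpd2 (0.37, 0.201), which form a shuttle that needs no carrier, had the smallest p. Gpd2 passed as higher with the class term, and Gpd1, Gpd2 and the malic enzyme Me1 over the 11. Of 6 regulators of mitochondrial genes, 0 passed over the 14 libraries with edgeR, 1 had an unadjusted p under 0.05, and DESeq2 called 1 and limma-voom 2 as higher. For enzymes and regulators alike, the shares of all genes that were higher were 10.8% by unadjusted p, 3.83% with DESeq2 and 11.6% with limma-voom. Ppara, the receptor for fatty acids that drives their oxidation, was at 12.3 ± 4.67 FPKM in control and 20.7 ± 5.63 in DC371739 samples (0.75, SE 0.22, adjusted p = 0.0734). It passed as higher with the class term (0.81, 0.0490) and over the 11 (1.06, 0.00402). The coactivator Ppargc1b was at 0.49 (0.322), and Ppargc1a passed as higher over the 11 (1.22, 0.0206). Both were low over the 14 libraries. Ppargc1b was at 0.41 ± 0.12 FPKM in control and 0.57 ± 0.26 in DC371739 samples, and Ppargc1a at 0.92 ± 0.68 and 1.3 ± 0.58.

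Markers of other liver cells moved in the same samples, and their part in the carriers' differences was not tested; in whole liver, fewer cells of a type and less RNA per cell cannot be told apart. Of 13 macrophage markers 3 rose (Laptm5, Ctss and Mpeg1), where 1.24% of all genes did. In all 9 were positive and 4 negative, the latter Cd163 (log2 fold change -0.55), C1qa (-0.26), C1qb (-0.07) and C1qc (-0.06), of which 0 passed. Their summed level was 450 to 680 FPKM in control and 497 to 803 in DC371739 libraries. DESeq2 called 6 of them as higher, limma-voom 7, the class-term fit 7 and that over the 11 libraries 6. Of all genes, these fits called 3.83%, 11.6%, 5.62% and, over the 11, 1353 of 12249 as higher. Of 10 genes listed as stellate and fibroblast markers 1 rose, Myh11, which is also a smooth muscle gene. Of the 10, 9 were positive and Lrat (-0.13) was negative, and the summed level was 61.5 to 90.5 against 78.6 to 124 FPKM. The same 4 fits called 3, 5, 2 and 3 of these as higher. Of 10 endothelial markers 0 passed over the 14 libraries with edgeR and 5 had an unadjusted p under 0.05 (64.3 to 99.9 against 76.1 to 114 FPKM), and the 4 fits called 1, 5, 2 and 4 as higher. Over the 14 libraries 7 of these markers were positive and 3 negative, the latter Clec4g (-0.12), Stab2 (-0.07) and Stab1 (-0.05). Prf1, 1 of 5 lymphocyte markers (4.88 to 10.1 against 5.91 to 13.1 FPKM), and Csf3r, 1 of 3 neutrophil markers (5.04 to 7.41 against 5.61 to 12.5 FPKM), were called higher in all 4 fits. With edgeR over the 14 libraries 0 of either list passed, and 2 and 1 had an unadjusted p under 0.05. Of 6 cholangiocyte markers 0 passed in any of these fits and 0 had an unadjusted p under 0.05 over the 14 libraries (13.1 to 19.3 against 13.4 to 29.8 FPKM). Of 9 hepatocyte markers 0 passed with edgeR over the 14 libraries, 1 had an unadjusted p under 0.05, and limma-voom called 1, Apoa2, as lower. DESeq2, the class-term fit and the 11 libraries gave 0. Over the 14 libraries 8 of the 9 were negative and Serpina1 (0.01) was positive, where 6491 of all 12166 genes were negative. The summed hepatocyte level was 91600 to 114000 FPKM in control and 85300 to 103000 in DC371739 libraries.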

How the data were processed

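RNA of 14 liver samples was measured by sequencing. The tools named in the submitters' processing notes are featureCounts 2.0.0, HISAT2 2.2.1 and edgeR; no source used here gives settings, build or strand. The authors deposited whole-number counts per Ensembl gene with summed exon length in bases, and a second table with FPKM values, the authors' log2 fold change and log2 mean CPM, and their p-value and FDR. The authors' deposited FPKM equalled count over length times 1 constant per library (largest relative deviation 1.3e-07). FPKM printed here were computed from the counts and TMM-scaled totals; the totals implied by the authors' FPKM were 0.753 to 0.778 of these.

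All genes were tested with edgeR 4.0.16 (R 4.3.3): quasi-likelihood F-test, robust dispersions, TMM, default filter (minimum count of 10), group as the model's term, Benjamini-Hochberg adjustment over 12166 genes. All 32 members passed the filter. SE was the fold change over the square root of F. Alternatives were other scalings and filters, DESeq2 1.42.0, limma 3.58.1 (voom with quality weights; deposited FPKM with pseudocounts of 1 and 0.1), a replicate block, a term for library class, the 11 shallower libraries, and each library left out. The tests were checked on simulated data. The closest of 42 replicate pairs within groups had a chi-square per degree of freedom of 11.2, so none was counted as a duplicate.

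The members and lists were chosen with earlier results of these data known. Named with values in each group were called members, the 12 others of smallest p and the most abundant of each role group, 17 in all; the other 15 are given more briefly. From other lists, called genes and the 2 of smallest p were named, with those called in the fits for library class. Markers of testis were also listed: 1 of 4, Sycp3, was tested and did not pass (log2 fold change -0.33, adjusted p = 0.387). Sequences were not used here.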

Additional observations from a re-analysis of the deposited data

Results flagged for a closer look

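3 levels stood far from the other 6 libraries of their group, by Dixon's criterion for 7 values (the gap to the nearest value as a share of the range). Slc25a44 was at 15.1 FPKM in DC371739 replicate 7, against 36.1 to 47.5 in the other treated libraries, a share of 0.649. Slc25a1 was at 170 FPKM in the same library, against 265 to 337 (0.573). Slc25a25 was at 43.5 FPKM in DC371739 replicate 3, against 14.8 to 26.7 (0.586). 34 groups of values were examined, 2 for each of 17 members. Chance flags about 1 in 20 if all 7 values come from 1 normal distribution. Each group here mixes deeper and shallower libraries, and DC371739 replicate 7 is a deeper library, so that rate may not hold.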

How the results depend on the processing

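Of all genes, 225 were called; the count became 848 with DESeq2, 2739 with limma-voom, 2635 in the 11 shallower libraries and 1499 with the class term; it ran from 25 to 1069 with 1 of the 14 libraries left out and from 1624 to 2913 with 1 of the 11 left out. Members called higher, 1 in the main analysis, were 2 with library size alone, 2 with limma on log2(FPKM + 1) or log2(FPKM + 0.1) and 2 with no filter on FPKM, 4 with DESeq2, 7 with limma-voom, 5 with the class term and, over the 11, 7; they ran from 0 to 4 and from 5 to 8 with 1 library left out of the 14 or the 11. Members called lower, 0 in the main analysis, were 5 with limma-voom, 2 with the class term and 3 over the 11, and ran from 0 to 1 and from 3 to 4. The 16 members that differed by library class ran from 10 to 17 with 1 library left out. That last set of alternatives was chosen after seeing the data. The cause of these shifts was not tested.

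The groups share replicate numbers whose meaning is not given. Deviations of same-numbered samples correlated at -0.131 to 0.548, and 0 of 7 treated samples correlated best with the control of their own number. The value of 0.548 was that of replicate 7, deeper in both groups, and the next was 0.121, for replicate 3. A replicate block left 8 of all genes, 0 members higher and 0 lower; Slc25a44 was at 0.97 (adjusted p = 0.0844). Depth limits what can be seen for members of few counts, such as Slc25a27 at 2 to 32 per library.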
